A study of Rattus norvegicus with 4 samples.

Results

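The genes described here are 10 members of the EGF family and its receptors, 6 ligand genes (Areg, Ereg, Hbegf, Btc, Tgfa and Nrg1) and 4 receptor genes (Egfr, Erbb2, Erbb3 and Erbb4). They were chosen by name, with earlier results of these data known, and are read by 12 probes among the 8927 genes that could be named on the array. RNA came from 4 cell cultures of the fisher 344 rat, an inbred strain: cells labelled neurons derived from olfactory bulb neural stem cells, cells labelled neurons derived from hippocampal neural stem cells, the olfactory bulb neural stem cells, and the hippocampal neural stem cells. The series title describes the sources as the adult hippocampus and the olfactory bulb and names insulin biosynthesis as its subject. No transgene or mutation is given in the labels, and the way in which neurons were obtained from the stem cells is not given in the sources used here. Per the design text of the series, RNA of 3 separate experiments was mixed for each group, and each mixture was put on 1 Agilent 1-colour array, so no group has a replicate. Differences below therefore carry no test and no p-value, and the number of arrays limits their precision.

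The ErbB receptors are tyrosine kinases of the cell surface that work in pairs. Their ligands are made as membrane-anchored precursors and are released by metalloproteases, mainly of the ADAM family. Areg, Tgfa, Ereg, Btc and Hbegf bind the EGF receptor, some of them also ErbB4, while neuregulins bind ErbB3 and ErbB4. ErbB2 has no known ligand of its own and serves as the partner of the others, and ErbB3 has a kinase of very low activity. EGF is a classic mitogen for neural stem cells in culture, and neuregulin acting through ErbB3 is known for its role in Schwann cells.

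Levels are log2 processed signals after subtraction of the 75th percentile of the array, so that a level of 0 is the signal at that percentile. They compare arrays for 1 probe and do not compare genes. Where the scanner software did not mark a spot as well above background on 1 of 2 arrays, that side was set to the lowest signal of any probe marked so on its array (or to its own signal where that was higher), and the difference is given as "at least". A gene is called higher or lower where its arrays differ by at least 2-fold, which is 1 on the log2 scale. Between 60.2% and 74.0% of 40758 probes were well above background on an array. Some probes are printed as 10 spots, and the median of their SD was 0.071 log2 units on the array with the tightest spots and 0.123 on the one with the widest, which is the error of spots and not of cultures. Both neuron arrays lay on 1 slide and both stem cell arrays on another, so slide and cell state cannot be told apart, while olfactory bulb and hippocampus were always compared within a slide.

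The labels were checked against marker genes. Of all genes compared between neurons and stem cells, 26.9% were called higher in neurons and 20.0% lower in olfactory bulb cells. In hippocampal cells these shares were 21.9% and 26.8%, and the counts below are to be read beside them. Among 7 neural stem and progenitor markers measured, 3 were called higher and 2 lower in neurons than in stem cells of each source. The higher ones were Prom1, Fabp7 and Egfr in both sources. Egfr is itself a member of the family described here, so its place in this list is not a separate check. Prom1 was not well above background in stem cells, and its log2 difference was at least 6.93 in olfactory bulb and at least 6.92 in hippocampal cells. Hes5 was lower in neurons of both sources, by 2.53 and 1.98. Of 6 mature neuron markers measured, 2 were called higher and 2 lower in olfactory bulb neurons than in olfactory bulb stem cells, and 1 higher and 2 lower in hippocampal neurons than in hippocampal stem cells. The summed signal of these markers, in multiples of the 75th percentile, was 2.75 in olfactory bulb neurons and 4.998 in hippocampal neurons, against 31.5 in olfactory bulb stem cells and 41.8 in hippocampal stem cells. That sum adds probes of unlike brightness. It is mostly Mapt in hippocampal neurons and in both stem cell cultures. In olfactory bulb neurons it is mostly Nefm and Snap25, with log2 levels of 0.51 and -0.51. Mapt had log2 levels of -1.53 and 1.71 in olfactory bulb and hippocampal neurons, against 4.91 and 5.33 in the stem cells. Snap25 was higher in neurons by 3.08 and 3.97. The mature neuron markers thus had no common direction, with a median difference of 0.16 in olfactory bulb and -0.35 in hippocampal cells. All 6 pericyte and fibroblast markers measured were higher in neurons of both sources, with summed signals of 515.8 and 380.1 in olfactory bulb and hippocampal neurons, against 0.125 and 0.099 in the stem cells of each source. Astrocyte markers summed to 98.9 and 109.3 in olfactory bulb and hippocampal neurons, against 6.97 and 6.90 in the stem cells, and 6 of 7 were higher in both sources. These sums too add probes of unlike brightness. In neurons the astrocyte sum is mostly Slc1a3, with log2 levels of 6.14 and 5.91, and Gja1, with 4.51 and 5.56, in olfactory bulb and hippocampal cells. Of the endothelial markers 3 of 3 compared were higher in both sources, though Pecam1 was not well above background on any array. Of 6 microglia and macrophage markers compared, 5 were higher in olfactory bulb and 4 in hippocampal neurons and 0 lower, and Itgam was not well above background on any array. Of the pericyte and fibroblast markers only Col1a2 was well above background on the stem cell arrays, and the astrocyte markers Gfap, Aqp4, Aldh1l1 and Slc1a2 were not. In the following, "neurons" and "stem cells" are the names given by the labels. In such bulk RNA, fewer cells of a type and less RNA per cell cannot be told apart.

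Of the 10 genes, 6 were well above background on all arrays (Areg, Hbegf, Tgfa, Egfr, Erbb2 and Erbb3), Nrg1 and Ereg on both neuron arrays, Btc on the olfactory bulb neuron array and Erbb4 on none. The clearest patterns were those of the ligands. Areg was higher in neurons than in stem cells and lower in olfactory bulb than in hippocampal cells, by 10-fold or more in each of the 4 comparisons. Tgfa was lower in olfactory bulb neurons than on any of the other arrays. Nrg1 was well above background in neurons and in neither stem cell culture, and Egfr was higher in neurons of both sources.

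**Figure D1:**
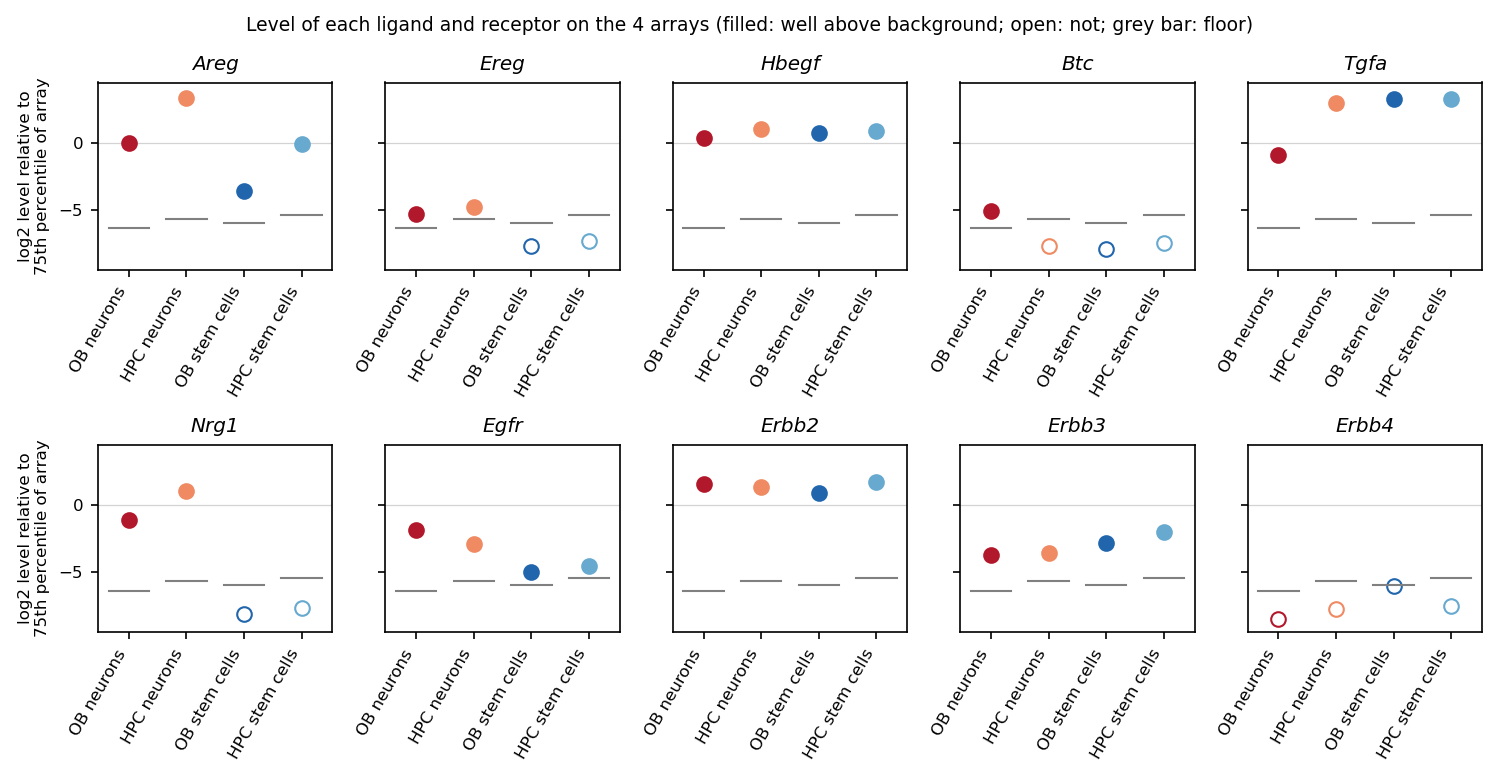
The log2 level of each gene relative to the 75th percentile of its array (vertical axis) is plotted for olfactory bulb (OB) neurons, hippocampal (HPC) neurons, OB stem cells and HPC stem cells, 1 array each; filled points were well above background, open points were not, and the grey bar is the lowest signal counted as well above background. Areg spans from -3.64 in OB stem cells to 3.32 in HPC neurons, Tgfa is low in OB neurons alone, and Erbb4 has open points on all 4 arrays.

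Areg encodes amphiregulin, a ligand of the EGF receptor whose transcription in other cells is known to respond to cyclic AMP. Its promoter is printed here because Areg alone passed 2-fold in all 4 comparisons. The sequence is from RefSeq (rat assembly GRCr8) and runs from 250 bases before to 50 bases after the annotated start, at chr14:17265592-17265891 on the minus strand. It is written in the direction of transcription, with the matches to 4 motifs in capitals.
Areg: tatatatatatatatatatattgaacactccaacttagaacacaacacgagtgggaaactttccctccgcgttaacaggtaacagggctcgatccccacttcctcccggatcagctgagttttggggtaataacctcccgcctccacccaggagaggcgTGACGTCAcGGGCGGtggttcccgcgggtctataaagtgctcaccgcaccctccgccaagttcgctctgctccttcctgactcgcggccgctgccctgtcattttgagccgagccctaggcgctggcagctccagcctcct

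The motifs searched on both strands were the short form of the cyclic AMP response element (TGACG), the AP-1 site (TGANTCA), the GC box (GGGCGG) and an E-box (CACGTG). The full cyclic AMP response element (TGACGTCA), which holds the short form on both strands, was added after the sequence had been seen. In the Areg window it begins 91 bases before the start, with a GC box 82 bases before the start. Of 33469 rat promoters of 300 bases, 1.83% hold the full element, 21.2% the short form, 33.1% the GC box, 7.33% the AP-1 site and 6.42% the E-box. Promoters were at hand for 7 of the 10 genes and not for Ereg, Nrg1 and Erbb3. Of these 7, Areg holds the full element, Areg and Hbegf hold the short form, 6 hold a GC box, and 0 hold the AP-1 site or the E-box in this window. A match is a description of the letters in the window and not evidence of binding.

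Areg had a log2 level of -0.04 in olfactory bulb neurons and 3.32 in hippocampal neurons, against -3.64 in olfactory bulb stem cells and -0.12 in hippocampal stem cells. Hippocampal neurons were highest, olfactory bulb stem cells lowest, and olfactory bulb neurons and hippocampal stem cells lay close together. Areg was 12.2-fold higher in olfactory bulb neurons than in olfactory bulb stem cells (log2 difference 3.60) and 10.9-fold higher in hippocampal neurons than in hippocampal stem cells (3.45). It was lower by 10.3-fold in olfactory bulb than in hippocampal neurons (-3.36) and by 11.5-fold in olfactory bulb than in hippocampal stem cells (-3.52). The change from stem cells to neurons thus differed between the sources by 0.16 log2 units, less than the 2 log2 units used to call a difference of changes. Under other ways of processing, the 4 differences ranged from 2.58 to 3.60, from 2.99 to 3.89, from -3.97 to -3.22 and from -3.54 to -2.62, in the order given, and the difference of changes from -1.31 to 0.16.

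Areg was chosen with this pattern known, so the genes nearest to it are named as a description over 4 arrays. Among 5494 other genes well above background on all arrays, Rsad2 had the nearest profile after each gene was centred on its mean, at a Euclidean distance of 1.19 log2 units. Nqo1 and Cxcl10 followed at 1.52 and 1.53. Rsad2 is an interferon-induced antiviral gene, Cxcl10 an interferon-induced chemokine and Nqo1 a quinone reductase gene. Rsad2 had log2 levels of -1.42 in olfactory bulb neurons and 0.93 in hippocampal neurons, against -5.20 in olfactory bulb stem cells and -0.85 in hippocampal stem cells, the same order as Areg except that hippocampal stem cells stood above olfactory bulb neurons.

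Ereg encodes epiregulin and lies next to Areg in the gene order of rat chromosome 14, with Btc on the other side of Areg and Epgn beyond Ereg. Ereg had a log2 level of -5.32 in olfactory bulb neurons and -4.84 in hippocampal neurons, against -7.73 and -7.36 in olfactory bulb and hippocampal stem cells, where it was not well above background. The neuron signals were only 2.14 and 1.80 times the lowest signal counted as well above background, so Ereg was at least 1.57-fold higher in olfactory bulb neurons and at least 1.49-fold higher in hippocampal neurons, short of a call. Its level differed by -0.48 between olfactory bulb and hippocampal neurons, against -3.36 for its neighbour Areg.

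Btc encodes betacellulin, a ligand of the EGF receptor and ErbB4. Its log2 level was -5.09 in olfactory bulb neurons, -7.72 in hippocampal neurons, -7.97 in olfactory bulb stem cells and -7.49 in hippocampal stem cells. Only the first of these was well above background, at 2.50 times the lowest such signal. Btc was at least 1.83-fold higher in olfactory bulb neurons than in olfactory bulb stem cells and at least 1.51-fold higher than in hippocampal neurons, and neither bound reaches a call. Epgn had no named probe.

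Tgfa encodes transforming growth factor alpha, a ligand of the EGF receptor known to act on neural progenitors of the adult rodent forebrain. Its promoter and that of the receptor gene Egfr are printed because these genes differed in opposite directions between olfactory bulb neurons and stem cells. Both are from RefSeq (GRCr8), on the plus strand at chr4:120175469-120175768 for Tgfa and chr14:95378376-95378675 for Egfr, with capitals as above.
Tgfa: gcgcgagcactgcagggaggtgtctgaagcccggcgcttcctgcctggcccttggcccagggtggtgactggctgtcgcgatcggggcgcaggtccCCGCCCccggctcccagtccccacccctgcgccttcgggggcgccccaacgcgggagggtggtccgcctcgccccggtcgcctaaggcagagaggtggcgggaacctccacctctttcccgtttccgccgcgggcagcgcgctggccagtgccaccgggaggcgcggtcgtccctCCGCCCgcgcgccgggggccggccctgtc
Egfr: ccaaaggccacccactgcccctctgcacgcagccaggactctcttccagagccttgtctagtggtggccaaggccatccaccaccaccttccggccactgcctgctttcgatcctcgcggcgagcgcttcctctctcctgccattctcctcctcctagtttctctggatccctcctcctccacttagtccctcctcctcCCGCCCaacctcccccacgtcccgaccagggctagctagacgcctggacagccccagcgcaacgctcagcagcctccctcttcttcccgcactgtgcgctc

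The Tgfa window holds the GC box at 154 bases before and 22 bases after the start, and the Egfr window holds it 51 bases before the start, each on the opposite strand. Their GC content was 76.7% and 64.3%, against 56.0% for Areg and a median of 51.7% over all rat promoters of this length.

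Tgfa had a log2 level of -0.90 in olfactory bulb neurons and 2.98 in hippocampal neurons, against 3.27 in olfactory bulb stem cells and 3.29 in hippocampal stem cells. Olfactory bulb neurons stood apart from the other arrays, whose levels lay close together. Tgfa was 18.0-fold lower in olfactory bulb neurons than in olfactory bulb stem cells (-4.17) and 14.8-fold lower than in hippocampal neurons (-3.88). It differed by -0.31 between hippocampal neurons and hippocampal stem cells and by -0.02 between olfactory bulb and hippocampal stem cells. The change to neurons therefore differed between the sources by -3.86 log2 units, and Tgfa was the only one of the 6 genes well above background on all arrays to be called at 2 log2 units. Of 5495 genes that could be compared in this way, 4.13% were called, 2.55% as higher and 1.58% as lower. The Tgfa difference of changes ranged from -5.33 to -3.67 under other ways of processing. The reported hippocampal difference of -0.31 was 0.15 with quantile normalization and 0.13 with spike-in scaling, which also moved the stem cell difference of -0.02 to 0.83.

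The nearest profiles to Tgfa among the 5494 genes were those of Scn11a, a sodium channel gene, at a distance of 0.14 log2 units, Slain1, a microtubule-associated gene, at 0.52, and Ninj2, a nerve injury-induced adhesion gene, at 0.56. Of 6 markers of neuroblasts and young neurons, 5 were called lower and 1 higher in olfactory bulb neurons than in olfactory bulb stem cells, and 3 lower and 1 higher in hippocampal neurons than in hippocampal stem cells. The higher one was Stmn2 in both sources, by at least 5.01 and at least 5.83 log2 units. Their summed signals in multiples of the 75th percentile were 1.20 in olfactory bulb neurons and 3.52 in hippocampal neurons, against 12.7 in olfactory bulb stem cells and 9.36 in hippocampal stem cells, and all 6 were still well above background in olfactory bulb neurons. Beside the counts of this list, 26.9% of all genes were higher and 20.0% lower in olfactory bulb, and 21.9% and 26.8% in hippocampal cells. The part of the neuroblast and young neuron markers in the Tgfa result was not tested.

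Hbegf encodes heparin-binding EGF-like growth factor. It varied least of the ligands, with a log2 level of 0.36 in olfactory bulb neurons and 1.01 in hippocampal neurons, against 0.72 in olfactory bulb stem cells and 0.85 in hippocampal stem cells. None of its 4 differences, which were -0.36 and 0.16 for state and -0.65 and -0.13 for source in neurons and stem cells, reached 2-fold. Spike-in scaling moved the first to -1.39, the third to -1.26 and the fourth to 0.72, and median scaling moved the second to -0.30. Egf, the family's founding member and the only other ligand with a named probe, likewise stayed within 2-fold in the 4 comparisons, with state differences of -0.18 in olfactory bulb and -0.25 in hippocampal cells and source differences of 0.64 in neurons and 0.57 in stem cells.

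Nrg1 encodes neuregulin 1, made in many isoforms. Its brighter probe (A_44_P477819) had a log2 level of -1.11 in olfactory bulb neurons and 1.098 in hippocampal neurons, against -8.10 and -7.69 in olfactory bulb and hippocampal stem cells. A second probe (A_44_P438143), printed as 10 spots, gave -3.62 ± 0.19 and -1.76 ± 0.06 in olfactory bulb and hippocampal neurons, against -6.996 ± 1.13 and -6.55 ± 0.55 in the stem cells (SD over 10 spots, 9 in hippocampal stem cells). Both probes were well above background on the neuron arrays only, although 2 of the 10 spots in olfactory bulb stem cells were marked so.

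Nrg1 was at least 29.0-fold higher in olfactory bulb neurons than in olfactory bulb stem cells and at least 91.2-fold higher in hippocampal neurons than in hippocampal stem cells on the brighter probe, and at least 5.09-fold and 12.6-fold on the other. It was 4.62-fold lower in olfactory bulb than in hippocampal neurons on the brighter probe (-2.21) and 3.62-fold lower on the other (-1.86). Both probes name the same transcript, and the part of it that each one binds is not given in the sources used here.

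**Figure D2:**
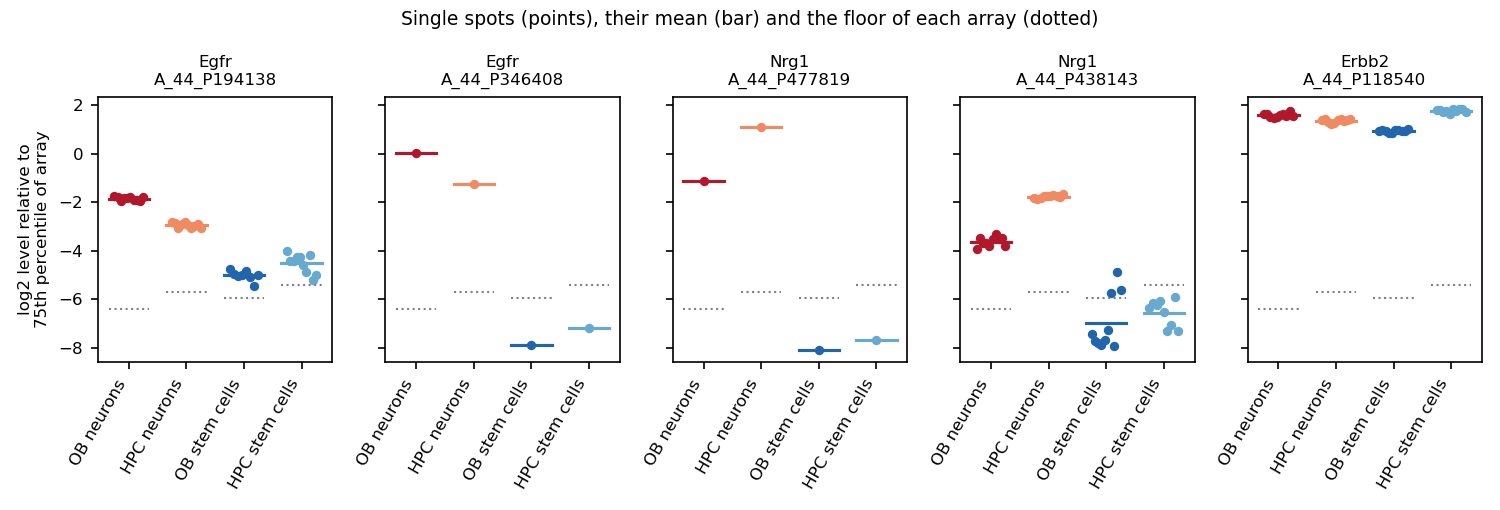
Log2 levels of single spots (points) with their mean (bar) for both probes of Egfr, both probes of Nrg1 and the probe of Erbb2, in OB neurons, HPC neurons, OB stem cells and HPC stem cells; the dotted line is the lowest signal counted as well above background on that array. Spots of the Egfr and Nrg1 probes printed 10 times lie closer together in neurons than in stem cells, where Egfr is near the dotted line and the spots of Nrg1 mostly lie below it; those of Erbb2 lie close together on all 4 arrays.

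Egfr, the receptor of EGF, Tgfa and Areg, had a log2 level of -1.85 ± 0.08 in olfactory bulb neurons and -2.93 ± 0.10 in hippocampal neurons, against -5.02 ± 0.21 in olfactory bulb stem cells and -4.52 ± 0.39 in hippocampal stem cells (SD over 10 spots, 8 in olfactory bulb stem cells, of the probe A_44_P194138). The stem cell signals were only 1.93 and 1.86 times the lowest signal counted as well above background. On this probe, Egfr was 9.01-fold higher in olfactory bulb neurons than in olfactory bulb stem cells (3.17) and 2.99-fold higher in hippocampal neurons than in hippocampal stem cells (1.58). It was 2.12-fold higher in olfactory bulb than in hippocampal neurons (1.09), just past the call, and differed by -0.50 between olfactory bulb and hippocampal stem cells, or 0.35 with spike-in scaling.

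The second Egfr probe (A_44_P346408, 1 spot) had log2 levels of 0.05 in olfactory bulb neurons and -1.23 in hippocampal neurons and was not well above background in either stem cell culture. It gave at least 64.7-fold in olfactory bulb and at least 18.2-fold in hippocampal cells for neurons over stem cells, and 2.42-fold for olfactory bulb over hippocampal neurons (1.27). The probes had the same direction and order of arrays in neurons, while the size of the change to neurons differed between them by several log2 units. The difference between olfactory bulb and hippocampal neurons fell short of 2-fold with median scaling (0.99) and with spike-in scaling (0.48).

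The change of Egfr to neurons differed between the sources by 1.59 log2 units, below the call, and by 0.12 with spike-in scaling. Markers of astrocytes, pericytes and fibroblasts, endothelial cells, and microglia and macrophages were higher on the same neuron arrays, with the values given above, and their part in the Egfr, Areg and Nrg1 results was not tested. Col23a1, a collagen gene, was nearest in profile to the Egfr probe A_44_P194138, at a distance of 0.15 log2 units. Tcea3, a transcription elongation factor gene, followed at 0.18 and Gja4, a gap junction gene, at 0.26. The other Egfr probe, whose range was 7.92 against 3.17 log2 units, was not used for these distances.

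Erbb2 was close to even across the arrays, with a log2 level of 1.59 ± 0.08 in olfactory bulb neurons and 1.37 ± 0.07 in hippocampal neurons, against 0.94 ± 0.05 in olfactory bulb stem cells and 1.77 ± 0.06 in hippocampal stem cells (SD over 10 spots). Its differences between neurons and stem cells were 0.65 in olfactory bulb and -0.41 in hippocampal cells, and those between olfactory bulb and hippocampus were 0.23 in neurons and -0.83 in stem cells. No difference reached 2-fold, and the spread between spots says nothing of that between cultures. With spike-in scaling all 4 signs turned, to -0.38, 0.03, -0.38 and 0.03 in the same order.

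Erbb3, a receptor of neuregulins, was the receptor with lower levels in neurons. Its log2 level was -3.73 in olfactory bulb neurons and -3.58 in hippocampal neurons, against -2.86 in olfactory bulb stem cells and -2.03 in hippocampal stem cells. It was 2.91-fold lower in hippocampal neurons than in hippocampal stem cells (-1.54). In olfactory bulb cells its difference of -0.87 was short of a call, and it came to -0.53 with normexp and to -1.36, -1.41 and -1.90 with quantile, median and spike-in scaling. Between olfactory bulb and hippocampus Erbb3 differed by -0.15 in neurons and -0.82 in stem cells, and the stem cell difference was 0.03 with spike-in scaling.

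Erbb3 is used by Schwann cells and by cells of the oligodendrocyte lineage, whose markers did not move as 1 group. For these counts, the shares over all genes were 26.9% higher and 20.0% lower in olfactory bulb, and 21.9% and 26.8% in hippocampal cells. Of 7 markers of the oligodendrocyte lineage, 4 were lower and 2 higher in olfactory bulb neurons than in olfactory bulb stem cells, and 3 were lower and 1 higher in hippocampal neurons than in hippocampal stem cells. Of 7 Schwann and olfactory ensheathing cell markers, 6 were higher and 1 lower in olfactory bulb neurons, and 3 higher and 2 lower in hippocampal neurons, relative to the stem cells. Their summed signal was 150.4 in olfactory bulb neurons and 65.9 in hippocampal neurons, against 95.7 and 164.9 in the stem cells of the same sources. In the stem cells that sum is mostly Sox10, with log2 levels of 6.47 in olfactory bulb and 7.22 in hippocampal cells. In neurons its largest part is Npy, with log2 levels of 6.18 in olfactory bulb and 4.87 in hippocampal cells. The stem cell levels of Npy were -1.30 and 3.25. Sox10, which is in both lists, was lower by 2.24 in olfactory bulb and by 2.92 in hippocampal neurons on the log2 scale. The part of these lists in the Erbb3 result was not tested. Erbb4, the other neuregulin receptor, was not well above background on any array, so no difference is given.

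**Figure D3:**
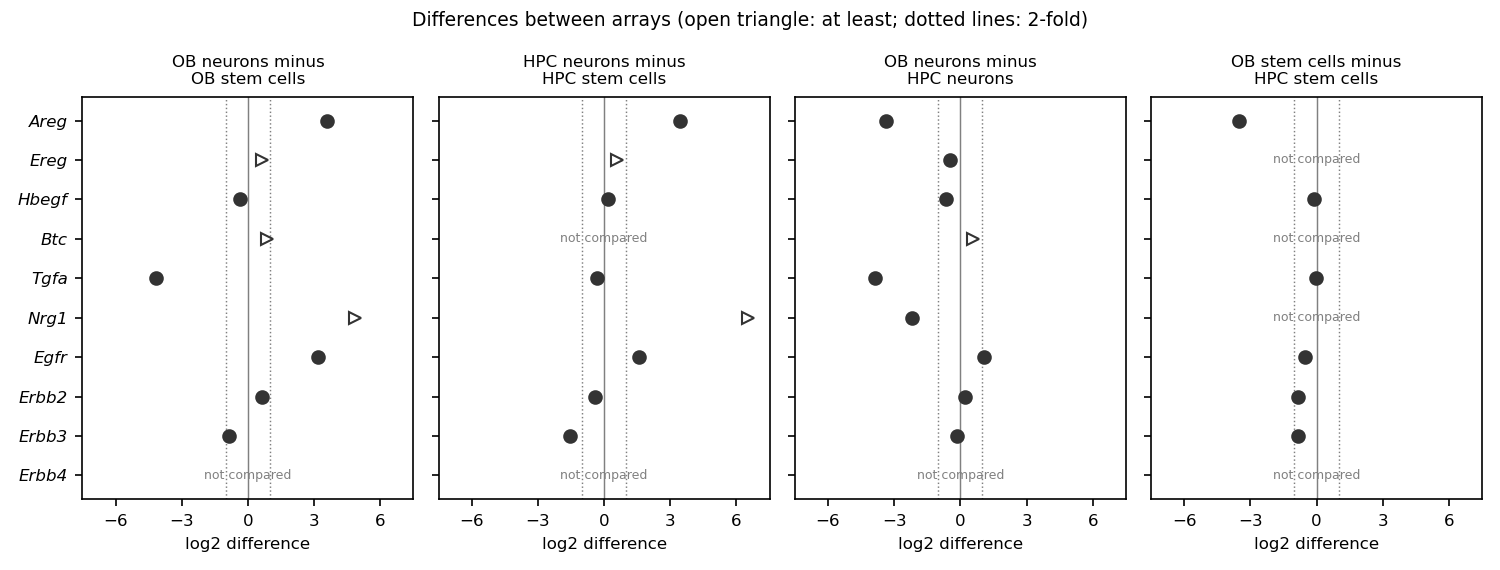
Log2 differences of the 10 genes in OB neurons minus OB stem cells, HPC neurons minus HPC stem cells, OB neurons minus HPC neurons and OB stem cells minus HPC stem cells (horizontal axis); open triangles are lower bounds of the size, dotted lines mark 2-fold, and genes not well above background on either array are marked as not compared. Areg is the only gene beyond 2-fold in all 4 panels.

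Counted together, 3 of 9 genes compared were higher (Areg, Nrg1 and Egfr) and 1 lower (Tgfa) in olfactory bulb neurons than in olfactory bulb stem cells, while 26.9% and 20.0% of all 7022 genes compared were higher and lower, 46.8% in all. In hippocampal cells 3 of 8 were higher in neurons (the same genes) and 1 lower (Erbb3), beside 21.9% higher and 26.8% lower of 6656 genes, 48.7% in all. Between olfactory bulb and hippocampal neurons 1 of 9 was higher (Egfr) and 3 were lower (Areg, Tgfa and Nrg1), beside 7.66% and 8.001% of 6999 genes, 15.7% in all. Between olfactory bulb and hippocampal stem cells 0 of 6 were higher and 1 was lower (Areg), beside 4.17% and 6.97% of 6026 genes, 11.1% in all. The family was chosen with these contrasts known, and the counts are a description. The median difference over the members compared was 0.65, 0.37, -0.48 and -0.66 in these 4 comparisons, against 0.08, -0.32, -0.01 and -0.43 over all genes. Each array enters a pair of the comparisons, so their values are not independent of each other.

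Other genes of the pathway were taken by role, 75 in all, of which 48 had a named probe. In neurons relative to stem cells, 13 were higher and 4 lower in olfactory bulb cells, and 13 higher and 4 lower in hippocampal cells. That is 35.4% in each source, below the 46.8% and 48.7% of all genes. Of olfactory bulb relative to hippocampal cells, 2 were higher and 8 lower in neurons (20.8%, beside 15.7% of all genes), and 3 higher and 4 lower in stem cells (14.6%, beside 11.1%). Among 6 sheddase genes and regulators, 3 were higher in neurons of both sources and 0 lower, beside 26.9% and 21.9% of all genes higher in olfactory bulb and hippocampal cells. They were Adam17, the main sheddase of Areg and Tgfa, by 1.23 in olfactory bulb and 1.32 in hippocampal cells, Adam9 by 1.02 and 1.97, and Timp3, an inhibitor of such proteases, by 4.32 and 2.31, all on the log2 scale, as are the values that follow. In olfactory bulb cells 1 of the 6 was higher with normexp, median or spike-in treatment.

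Of 7 receptor inhibitors and turnover genes, only Errfi1 was higher in both sources, by 4.98 in olfactory bulb and 3.53 in hippocampal cells. Errfi1 encodes a feedback inhibitor that binds the kinase domain of the EGF receptor. Its log2 level was 6.69 in olfactory bulb neurons and 5.70 in hippocampal neurons, against 1.71 in olfactory bulb stem cells and 2.17 in hippocampal stem cells. Of 15 adaptors and kinases, 1 was higher and 2 lower in olfactory bulb neurons, and 2 higher and 1 lower in hippocampal neurons, than in the stem cells. Over all genes, 26.9% were higher and 20.0% lower in olfactory bulb cells, and 21.9% and 26.8% in hippocampal cells. The adaptor Shc1 was higher by 1.97 and 1.71, and Pik3r1, a regulatory subunit of PI3-kinase, was lower by 2.58 and 1.00, in olfactory bulb and hippocampal cells. These counts depend on the scaling, as do the shares over all genes. With median scaling 6 of the 15 were lower in olfactory bulb and 10 in hippocampal cells, with 1 higher in each. Of all genes, 33.7% and 42.9% were then lower and 19.7% and 17.3% higher. With spike-in scaling 0 of the 15 were higher and 9 lower in olfactory bulb cells, and 2 higher and 0 lower in hippocampal cells. Of all genes, 16.1% were then higher and 47.1% lower in olfactory bulb cells, and 29.1% and 14.7% in hippocampal cells. The hippocampal call of Pik3r1 was also lost with normexp.

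Of 14 transcripts known to be induced by EGF, 4 were higher and 2 lower in neurons of both sources. The AP-1 gene Fosl1 was higher by 5.48 in olfactory bulb and 3.28 in hippocampal cells, the transcription factor gene Egr1 by 1.999 and 3.34, and the MAP kinase phosphatase gene Dusp5 by 1.58 and 2.35, while Myc was lower by 3.77 and 2.54. In olfactory bulb cells 5 of the 14 were higher and 2 lower, which became 1 higher and 4 lower with spike-in scaling. Over all genes compared there, 26.9% were higher and 20.0% lower, or 16.1% and 47.1% with spike-in scaling. In hippocampal cells 5 of the 14 were higher and 2 lower, beside 21.9% and 26.8% of all genes. The share of all genes called the same way in both sources was not computed. Between olfactory bulb and hippocampal neurons, 0 of the 14 were higher and 6 lower (between 5 and 9 lower under the alternatives), with a median difference of -0.69. Of all 6999 genes compared there, 7.66% were higher and 8.001% lower. With spike-in scaling, which gave the 9, these shares were 3.67% and 21.6%. Between olfactory bulb and hippocampus, Fosl1 differed by -1.15 in neurons and by -3.35 in stem cells. Fosl1 was thus higher in neurons and lower in olfactory bulb cells, as Areg was. Its log2 level in olfactory bulb stem cells, -5.64, was close to the lowest signal counted as well above background there (-5.97). The differences of 5.48 and -3.35 therefore rest on a value near background. Of 5 surface proteins that bind ligands or receptors, the proteoglycan gene Sdc4 was higher in neurons by 5.67 and 6.06, and the hyaluronan receptor gene Cd44 differed between olfactory bulb and hippocampus by -1.25 in neurons and -1.81 in stem cells.

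**Figure D4:**
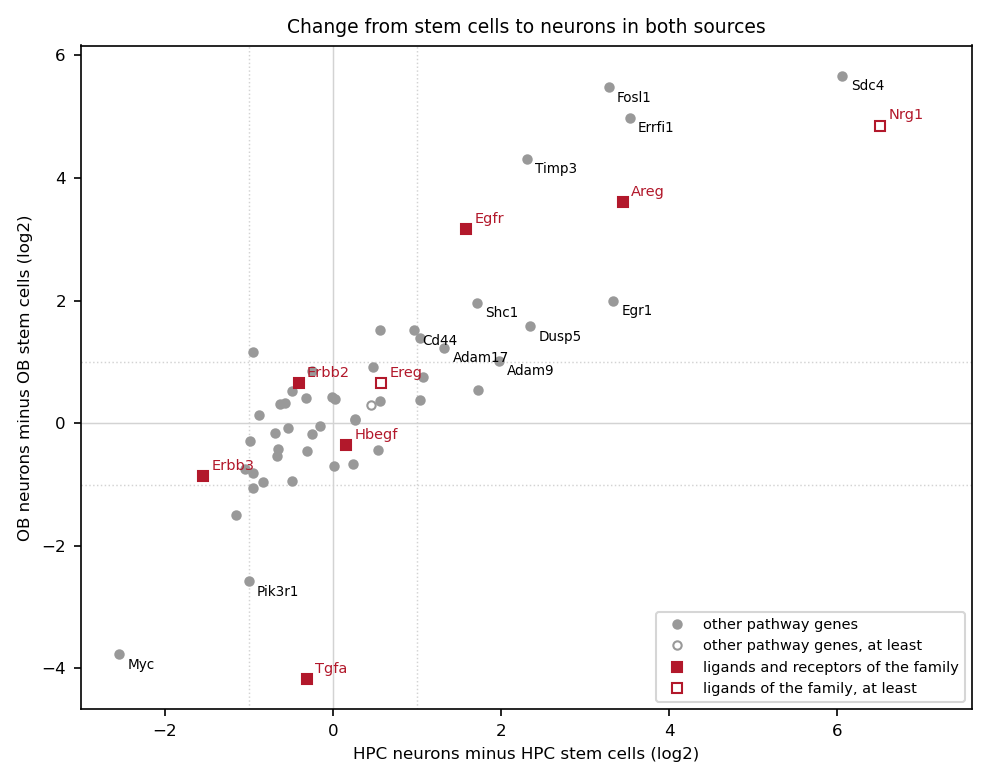
Each point is a gene of the family (red squares) or of the wider EGF and ErbB pathway (grey circles), with its log2 difference of HPC neurons minus HPC stem cells on the horizontal axis and of OB neurons minus OB stem cells on the vertical axis; open symbols are lower bounds, dotted lines mark 2-fold. Sdc4, Nrg1, Errfi1, Fosl1 and Areg lie far up in both sources, and Tgfa lies low on the vertical axis and near 0 on the horizontal one.

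The scaling of the arrays sets the zero of every comparison, so the main differences were recomputed under each alternative. The direction of the Areg, Nrg1 and Egfr differences between neurons and stem cells was kept under each alternative that gave a value, and so was that of Areg, Tgfa, Nrg1 and Egfr between olfactory bulb and hippocampal neurons. The smallest sizes reached were 2.58 and 2.99 for Areg, 2.35 and 3.65 for Nrg1 and 2.14 and 1.12 for Egfr between neurons and stem cells of olfactory bulb and hippocampus.

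**Figure D5:**
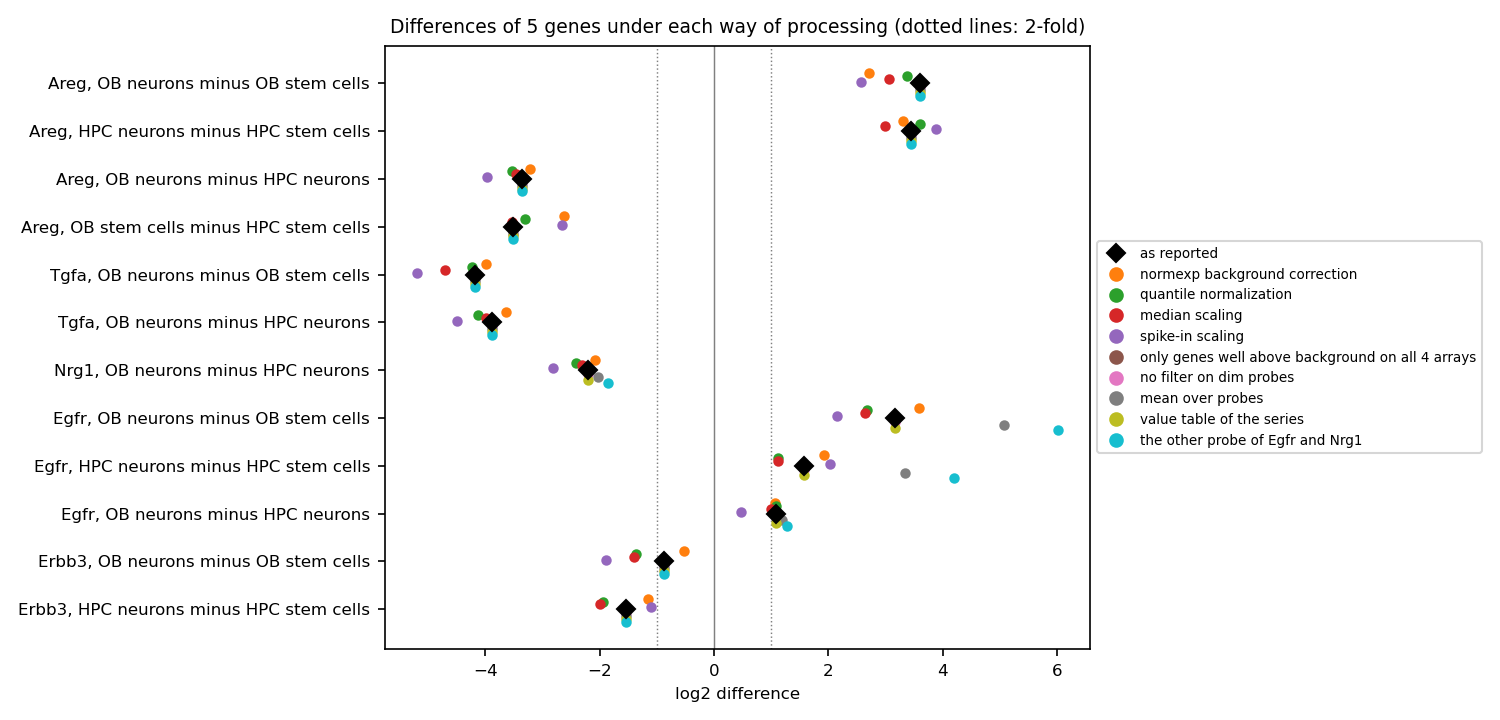
Log2 differences (horizontal axis) of Areg, Tgfa, Nrg1, Egfr and Erbb3 in the named comparisons, with the reported value as a black diamond and each alternative way of processing as a coloured point; dotted lines mark 2-fold. The differences of Areg, Tgfa and Nrg1 stay beyond 2-fold, and those of Egfr between OB and HPC neurons and of Erbb3 between OB neurons and OB stem cells cross the line.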

How the data were processed

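RNA of 4 rat cell cultures was hybridised to 4 Agilent 1-colour (Cy3) arrays, 1 per group. The deposited intensity values are the processed signals of Agilent Feature Extraction 10.5.1.1, per the submitters' processing notes and the file headers, with background subtracted within each array and no scaling between arrays recorded. The value table of the series held the same intensities as the authors' scanner files (largest difference 0). Here, 41012 non-control probes were taken, flagged outlier spots were dropped, which left 40758 probes, spots of a probe were averaged on the log2 scale, and the 75th percentile of each array was subtracted. A probe counted as well above background when most of its spots were so marked; no spot was saturated. Probe accessions without versions were matched to RefSeq genes of GRCr8, used for names and promoter sequences only, since the headers name another build (rn4) for the array design. A single gene symbol was found for 10783 probes, several symbols for 0 and no symbol for 29975. The probe with the highest mean stood for a gene with several probes.

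The members and gene lists were chosen with earlier results of these data known. The named genes were all members with each of their probes, up to 4 genes per pathway list that passed 2-fold the same way in both sources or both states, the other ligands, up to 4 markers per list, and the 3 nearest profiles of members with a range of at least 2 log2 units. Protein sequences were not used here. The difference and call steps were tested on simulated data. All simulated arrays had the same marks for well above background, so the step that gives "at least" values was not tested there. Alternatives were normexp (offset 50) on median spot and background signals, since the files hold no mean signals, quantile normalization, median and spike-in scaling, 2 other filters on dim probes, the mean over probes, the value table and, added after seeing the data, the other probe of Egfr and Nrg1. Python 3.11.15, numpy 2.4.6, pandas 2.3.3, R 4.3.3 and limma 3.58.1 were used.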

Additional observations from a re-analysis of the deposited data

Results flagged for a closer look

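The difference of state went opposite ways in the sources for Hbegf (-0.361 in olfactory bulb and 0.157 in hippocampal cells) and Erbb2 (0.651 and -0.405), and the difference of source went opposite ways in the states for Egfr (1.09 in neurons and -0.502 in stem cells) and Erbb2 (0.228 and -0.828). With 1 array per group these differences were not tested, and apart from the 1.09 of Egfr each is below 2-fold.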

How the results depend on the processing

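Of the counts of called members recomputed under the alternatives, 78 stayed within 1.5 times the reported one and 12 did not. In olfactory bulb neurons against olfactory bulb stem cells, 2 members were lower with quantile or median scaling (Tgfa and Erbb3) and 3 with spike-in scaling (also Hbegf), against 1. In olfactory bulb against hippocampal neurons, 0 were higher with median or spike-in scaling, against 1, and 5 were lower with spike-in scaling, against 3, as Hbegf (-1.26) and Ereg (-1.09) passed 2-fold. Without a filter on dim probes, which adds values not well above background by construction, 5 were higher and 2 lower in the first of these comparisons, 2 higher in the second, and 1 higher in olfactory bulb against hippocampal stem cells, and the difference of changes was called for 1 higher and 2 lower members, against 0 and 1. Of the counts for the pathway lists, 329 stayed within 1.5 times the reported one and 55 did not. Leaving out a replicate was not possible with 1 array per group. No paired analysis was possible because each group holds 1 pooled sample.

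Over all genes, higher genes made up 57.4% of the calls in olfactory bulb neurons against stem cells, 37.0% with median and 25.4% with spike-in scaling, and 44.9%, 28.8% and 66.5% in hippocampal cells. In olfactory bulb against hippocampal cells they made up 48.9% in neurons and 14.5% with spike-in scaling, and 37.4% and 93.9% in stem cells. Over 8 alternatives, the counts of higher genes ranged from 1069 to 2295 (reported 1887), from 788 to 1940 (1455), from 257 to 812 (536) and from 133 to 1114 (251) in the order of the report, and those of lower genes from 1162 to 3308 (1402), from 976 to 2855 (1786), from 302 to 1515 (560) and from 72 to 726 (420). The median of all genes moved to -0.41, -0.78, -0.11 and -0.45 with median scaling and to -0.90, 0.12, -0.62 and 0.42 with spike-in scaling. Signals near background limit Ereg, Btc, Erbb4, the stem cell values of Egfr and Nrg1, and the olfactory bulb stem cell value of the pathway gene Fosl1.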
